A study of Mus musculus with 6 samples.

Results

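The natriuretic peptide system was followed through 8 genes, *Nppa*, *Nppb*, *Nppc*, *Npr1*, *Npr2*, *Npr3*, *Corin* and *Mme*, of the 54232 gene identifiers in the count files. They were chosen by name for their roles in the system, with earlier results of these data known. RNA of the heart ventricle was sequenced in 6 WT C57BL/6J mice that had all been kept on western diet (WD), a high-fat, high-sugar diet that makes mice obese. After 15 weeks of WD, 3 mice were needle-fed Tributyrin, a triglyceride made of butyrate and glycerol, at 5 g/kg body weight for 3 weeks, and 3 mice received vehicle, named PBS in the sample labels. The labels give neither the age nor the sex of the mice, and no group on another diet was analysed here. In all 6 libraries the Y-linked gene *Ddx3y* had 1571 to 2559 counts and *Xist* at most 6, the pattern of male mice. The comparison asks which heart transcripts differ between WD-fed mice with and without Tributyrin.

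Natriuretic peptides are hormones that heart muscle releases when its walls are stretched. *Nppa* and *Nppb* encode the precursors of atrial natriuretic peptide (ANP) and B-type natriuretic peptide (BNP), which raise cyclic GMP (cGMP) through the receptor NPR-A, encoded by *Npr1*, and thereby promote salt excretion and relax vessels. *Nppc* encodes the C-type peptide (CNP), whose receptor NPR-B comes from *Npr2*, while NPR-C, from *Npr3*, clears all of these peptides, corin cuts the ANP precursor to its active form and neprilysin, from *Mme*, breaks the peptides down. In the adult heart ANP comes mostly from the atria, and transcripts of both *Nppa* and *Nppb* are known to increase in ventricles under load.

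The peptides share a ring closed by a pair of cysteines, which is the stretch that the receptors recognise. The bases that encode this ring in *Nppb* and *Nppc* are shown because closely alike stretches are where reads of one gene could be taken for reads of another. Each covers 17 codons (51 bases) inside exon 2 of 3, read from GENCODE M21 transcripts (GRCm38), and capitals mark the 40 bases that both genes have in common:
*Nppb*, chr4:147986464-147986514, plus strand: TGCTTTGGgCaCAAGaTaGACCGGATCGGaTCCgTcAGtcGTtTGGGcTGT
*Nppc*, chr1:86669667-86669717, minus strand: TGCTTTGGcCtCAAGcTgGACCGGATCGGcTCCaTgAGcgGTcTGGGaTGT
Over the whole transcripts the longest identical run of *Nppb* and *Nppc* was 11 bases, far shorter than a read.

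All 8 genes are protein coding. *Nppb* (chr4:147985788-147987205) and *Nppa* (chr4:148000722-148002079) lie on the plus strand of chromosome 4, 13.5 kb apart. *Npr1* (chr3:90450591-90465866, minus strand), *Npr2* (chr4:43631935-43651244, plus strand) and *Npr3* (chr15:11839896-11907287, minus strand) encode the receptors. *Corin* (chr5:72300025-72504473, minus strand) and *Mme* (chr3:63241537-63386030, plus strand) encode the peptidases, and *Nppc* (chr1:86666291-86670571) is on the minus strand. Exons of an antisense gene share 266 bases with *Npr2*, and that gene, *Gm12473*, had 53 to 123 counts per library. The other genes that overlap members on the opposite strand had at most 5 counts in any library. The libraries were stranded, but the sources used here do not say whether strand was used in the counting.

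The libraries held 20369746 to 32734485 counts. Ventricular cardiomyocyte markers (10 genes, among them *Myl2*, *Irx4* and *Myh6*) were all detected. They summed to between 42700 and 46100 counts per 1000000 (CPM, scaled by trimmed mean of M values, TMM) in every library. *Myh6* alone held 17000 to 21700 CPM of this sum and *Irx4* 31.5 to 42.7 CPM. The sum thus mainly followed its most abundant genes, and whether the ventricular share was even was not tested. Of these 10 markers 6 were higher and 4 lower on average with Tributyrin. At an unadjusted p under 0.05 by edgeR, 2 were higher, where 1.97% of all genes were, and 0 lower, where 2.28% were. The groups were apart in 1 of them, higher, as in 4.34% of all genes. Atrial markers (11 genes, among them *Sln*, *Myl7*, *Myl4* and *Mybphl*) summed to 273 and 254 CPM in vehicle replicates 1 and 2, against 97.6 CPM in vehicle replicate 3 and 101 to 145 CPM in the Tributyrin libraries. Because *Nppa* is itself strongly expressed in atria, these values are given again beside its result. The 4 smooth muscle markers were all higher on average with Tributyrin, at 109 to 226 CPM in sum against 130 to 188 CPM with vehicle, and 5 of 7 fibroblast markers were lower, at 777 to 961 against 867 to 979 CPM. Both ranges of sums overlapped. At an unadjusted p under 0.05 by edgeR, 2 smooth muscle markers were higher, where 1.97% of all genes were, and none lower. At that p 2 fibroblast markers were lower, where 2.28% of all genes were, and none higher. The groups were apart in 1 smooth muscle marker (higher, as in 4.34% of all genes) and 1 fibroblast marker (lower, as in 4.61%). The part of these markers in the values of the members was not tested. Of the 4 neutrophil and 5 adipocyte markers none reached 10 counts in every library. In bulk tissue, fewer cells of a type and less RNA per cell cannot be told apart.

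Length-scaled levels, in CPM per kb of exon, placed *Nppb* highest of the 8 genes, followed by *Corin* and then *Nppa*. Over the 6 libraries *Nppb* averaged 70.1 ± 31.2 CPM per kb (SD, n = 6), *Corin* 37.1 ± 4.94 and *Nppa* 25.8 ± 11.8. Neighbours in this part of the order overlapped, *Nppb* spanning 21 to 113 CPM per kb, *Corin* 31.6 to 45.0 and *Nppa* 13.0 to 46.1. *Nppb* had the highest level of the 8 in 5 of 6 libraries and *Corin* in the other, Tributyrin replicate 1.

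Among the receptors the order of length-scaled levels was *Npr2*, *Npr1* and *Npr3*. *Npr2* averaged 12.2 ± 0.465 CPM per kb (SD, n = 6), its highest library level being about that of the lowest *Nppa* library, at 13.0. *Npr1* averaged 3.23 ± 0.320, *Npr3* 2.14 ± 0.606 and *Mme* 1.51 ± 0.177 CPM per kb, and each overlapped the next. The lowest *Npr2* library (11.7 CPM per kb) was above the highest *Npr1* library (3.78). *Nppc* was last, at no more than 0.0908 CPM per kb in any library. Dividing by the longest transcript in place of all merged exons left the order of the 8 the same, with higher levels for *Npr2* (15.6), *Npr1* (3.8), *Npr3* (2.92) and *Mme* (2.16 CPM per kb).

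**Figure D1:**
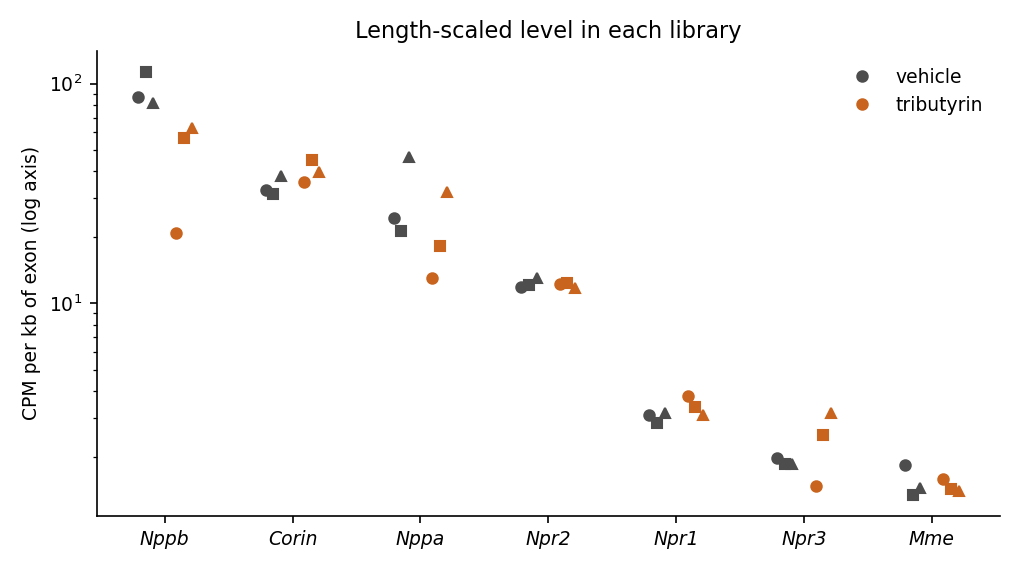
Level of each member in CPM per kb of exon (log axis) by gene, with one point per library, grey for vehicle and orange for Tributyrin, and circles, squares and triangles for replicates 1, 2 and 3. *Nppc*, at no more than 0.0908, is left out. *Nppb* spread from 21 to 113 while *Npr2* stayed between 11.7 and 13.0.

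No member passed an adjusted threshold. Of 14133 genes tested with edgeR's quasi-likelihood test, 0 passed a false discovery rate (FDR) of 10% (0.0%), among them 0 of the 7 members tested. 600 genes had an unadjusted p under 0.05, while DESeq2 called 11 genes at 10%, none of them a member, and limma-voom called 0. At an unadjusted p under 0.05, 1 member, *Nppb*, was lower with Tributyrin, where 2.28% of all genes were, and 1, *Corin*, was higher, where 1.97% were. In 1 member, again *Nppb*, every Tributyrin library was below every vehicle library, as in 4.61% of all genes, and in 0 members was every Tributyrin library above, as in 4.34%. These counts moved with single libraries and settings, the 600 genes becoming 1360 without Tributyrin replicate 2 and 389 when vehicle replicate 3 was left out. The 2 members became 1 (*Nppb*) without vehicle replicate 1, vehicle replicate 2 or Tributyrin replicate 2. They also became 1 (*Nppb*) with library size alone or a mean CPM of at least 5. They became 3 with the replicate number as a block, without Tributyrin replicate 1 and without Tributyrin replicate 3. Without the filter on low counts they became 4. With a score of atrial markers as a covariate the 2 were *Nppb* and *Nppa*. The median log2 fold change of the 7 was -0.03, and that of all genes tested -0.001.

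**Figure D2:**
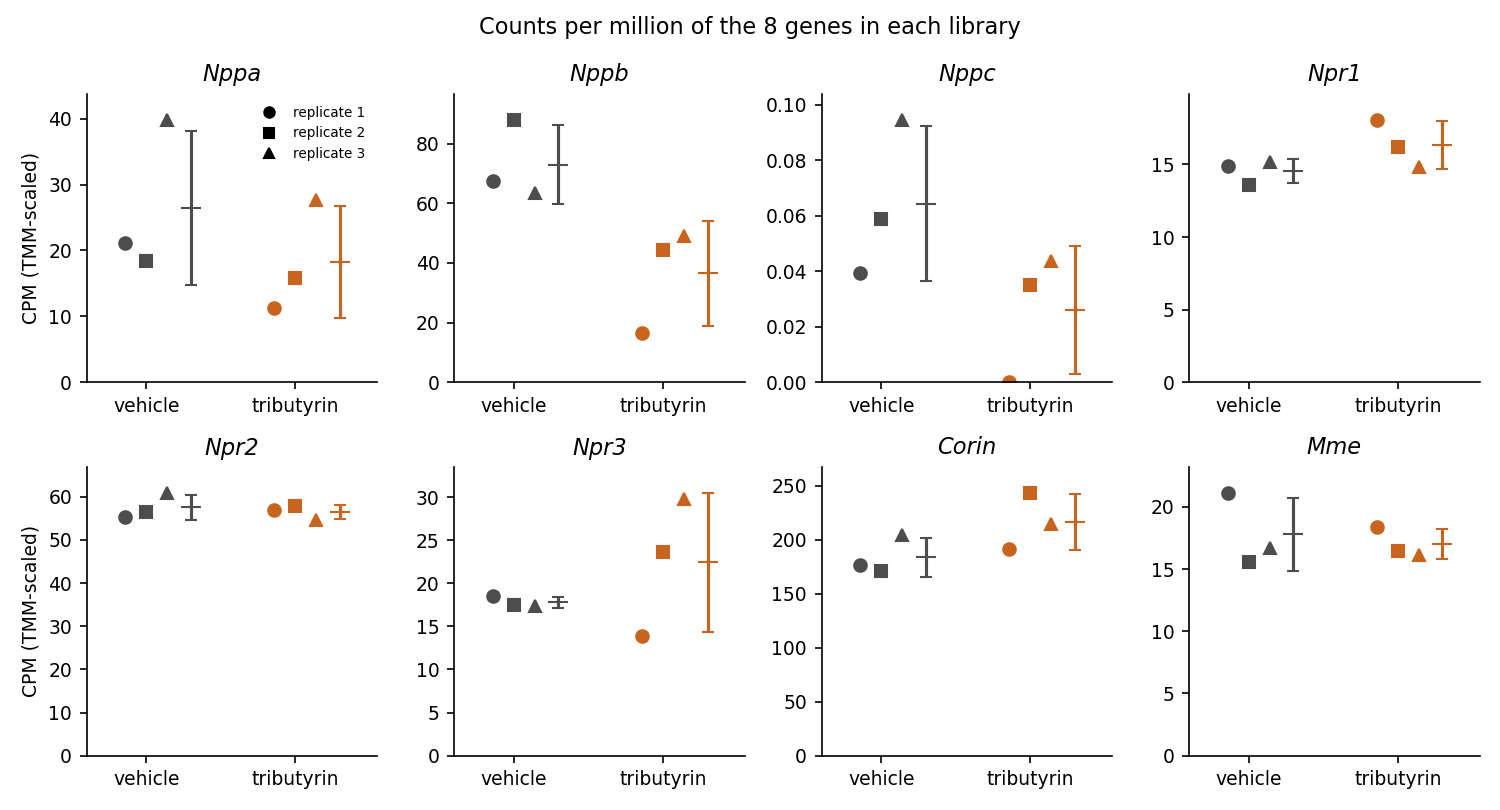
TMM-scaled counts per 1000000 (CPM) of each of the 8 genes in the 3 vehicle (grey) and 3 Tributyrin (orange) libraries, one point per library with circles, squares and triangles for replicates 1, 2 and 3, and a bar for the mean ± SD beside them, each panel on its own axis from 0. The groups are apart for *Nppb* and overlap for the other 7 genes.

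*Nppb*, the BNP gene, had the lowest unadjusted p of the members. It was at 67.5, 88.0 and 63.4 CPM in vehicle replicates 1, 2 and 3, and at 16.4, 44.2 and 49.05 CPM in Tributyrin replicates 1, 2 and 3. All vehicle libraries were above all Tributyrin libraries, and Tributyrin replicate 1 was far below the rest. The group means were 73.0 ± 13.2 CPM with vehicle and 36.5 ± 17.6 CPM with Tributyrin (SD, n = 3). The log2 fold change was -1.0 (SE 0.309, 95% interval -1.69 to -0.32), a fold of 0.499, with an unadjusted p of 0.00837 and an adjusted p of 0.999 by edgeR, so the difference did not pass the correction. *Nppb* stood at place 109 of 14133 by p. Without Tributyrin replicate 1 the log2 fold change was -0.64 (adjusted p = 0.526 by edgeR), and it ranged from -1.27 to -0.64 with each library left out in turn.

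*Nppa*, the ANP gene, was lower on average with Tributyrin, but the groups overlapped. It was at 21.1, 18.4 and 39.8 CPM in vehicle replicates 1 to 3 and at 11.25, 15.9 and 27.7 CPM in Tributyrin replicates 1 to 3. Tributyrin replicate 3 was above vehicle replicates 1 and 2, and vehicle replicate 3 was the highest of the 6. The means were 26.4 ± 11.7 CPM and 18.3 ± 8.50 CPM (SD, n = 3), and the log2 fold change was -0.53 (SE 0.333, 95% interval -1.27 to 0.21, unadjusted p = 0.142, adjusted p = 0.999 by edgeR). The value rested on single libraries. It was -0.12 without vehicle replicate 3, -0.27 without Tributyrin replicate 1 and -0.95 without Tributyrin replicate 3.

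*Nppa* did not follow the atrial markers across libraries. *Myl7*, the atrial myosin light chain, was at 66.4 and 56.4 CPM in vehicle replicates 1 and 2 and at 4.21 CPM in vehicle replicate 3, where *Nppa* was at its highest. *Sln*, the atrial calcium pump inhibitor, was at 12.4 and 6.8 CPM in vehicle replicates 1 and 2 and at 0.237 CPM in vehicle replicate 3. With an atrial score (the mean log2 CPM of the 10 atrial markers tested) as a covariate the *Nppa* log2 fold change was -0.82 (unadjusted p = 0.0194, adjusted p = 1.0 by edgeR), and without vehicle replicates 1 and 2, an alternative added after the data were seen, it was -1.13. That fit sets the 3 Tributyrin libraries against vehicle replicate 3 alone, the highest in *Nppa*, and assumes that this lone library varies like the others. *Nppb* gave -0.86 with the covariate (adjusted p = 1.0 by edgeR) and -0.80 against vehicle replicate 3 alone. Of the 10 atrial markers tested 8 were lower and 2 higher with Tributyrin, with a median log2 fold change of -0.83. At an unadjusted p under 0.05 by edgeR, 5 were lower, where 2.28% of all genes were, and 0 higher, where 1.97% were. In 2 of them every Tributyrin library was below every vehicle library, as in 4.61% of all genes. *Bmp10*, the marker not tested, had at most 1 count in a library.

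Within a library, *Nppb* exceeded *Nppa* per kb in all 6. The ratio of *Nppb* to *Nppa* was 3.55, 5.29 and 1.76 in vehicle replicates 1 to 3 and 1.62, 3.08 and 1.96 in Tributyrin replicates 1 to 3. The 2 peptide genes thus did not keep a fixed ratio in either group, and the ranges overlapped. The log2 ratio differed by -0.59 (SE 0.540) between groups, with p = 0.3 in a two-sided exact permutation test and an adjusted p of 0.5 over the 5 ratios compared. The difference was -0.23 without vehicle replicate 2 and -1.02 without vehicle replicate 3. With 3 mice against 3 this test cannot give a p below 0.1.

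*Nppc*, the CNP gene, was barely detected. It had 1, 2 and 2 counts in vehicle replicates 1 to 3 and 0, 1 and 1 counts in Tributyrin replicates 1 to 3. All values were under the 3 counts that a count of 0 allows, so no fold is given, and a difference was not detectable at this depth. Of 3 genes for other ligands (*Ostn*, *Guca2a* and *Guca2b*) and the guanylin receptor gene *Gucy2c*, none passed the filter, and none had more than 4 counts in a library.

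The promoters of *Nppb* and *Nppa* are shown because these neighbours were the members with the widest spread between libraries, and because binding motifs of heart transcription factors are described in them. The stretch is the 250 bases before the RefSeq start site on GRCm38.p6, 5′ to 3′, and capitals mark the letters searched:
*Nppb*, chr4:147985650-147985899, plus strand: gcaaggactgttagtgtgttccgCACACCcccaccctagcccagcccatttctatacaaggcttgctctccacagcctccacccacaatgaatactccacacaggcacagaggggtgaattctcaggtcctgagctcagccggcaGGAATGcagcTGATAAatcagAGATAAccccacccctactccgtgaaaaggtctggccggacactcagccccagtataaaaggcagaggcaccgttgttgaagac
*Nppa*, chr4:148000472-148000721, plus strand: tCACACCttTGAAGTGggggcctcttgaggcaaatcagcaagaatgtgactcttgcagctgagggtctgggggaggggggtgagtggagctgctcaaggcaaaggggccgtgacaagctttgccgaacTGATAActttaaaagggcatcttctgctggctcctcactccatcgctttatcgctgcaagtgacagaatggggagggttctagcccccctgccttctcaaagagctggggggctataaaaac
5 motifs were searched on both strands of 300-base windows reaching 50 bases past the start: AGATAA, also with T in its first place or G in its last, for GATA factors, TNAAGTG for NKX2-5, CATTCC for TEAD factors, GGTGTG for T-box factors, and the CArG box of SRF. *Nppb* held 2 GATA matches, at 95 and 84 bases before the start, 1 TEAD match on the opposite strand and 1 T-box match on the opposite strand. *Nppa* held 1 GATA match 122 bases before the start, 1 NKX2-5 match and 1 T-box match on the opposite strand. No matches overlapped each other. Among 32851 promoters, 29.8% held the GATA letters, 11.5% those of NKX2-5, 14.7% those of TEAD, 19.0% those of T-box factors and 1.63% a CArG box. All 8 members matched a RefSeq promoter, and the *Npr1*, *Npr2*, *Npr3* and *Nppc* windows held none of the 5 motifs. The RefSeq start of *Nppb* lies 112 bases inside the GENCODE gene.

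None of the 21 genes for regulators of these promoters had an unadjusted p under 0.05. Of them 9 were higher and 12 lower with Tributyrin, with a median log2 fold change of -0.03 and a range of -0.19 to 0.21. *Nkx2-5*, a cardiac homeobox factor, averaged 83.7 ± 3.52 CPM with vehicle and 85.4 ± 5.19 CPM with Tributyrin. *Srf*, which binds CArG boxes, averaged 155 ± 2.54 and 146 ± 9.35 CPM (SD, n = 3 each). The lowest unadjusted p values of the list were 0.129 for *Tead1* (log2 fold change -0.19, SE 0.112) and 0.223 for *Myocd*, a coactivator of SRF (-0.18, SE 0.140), both by edgeR with adjusted p = 0.999.

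The 7 genes that flank *Nppb* and *Nppa* on chromosome 4 showed small differences. Of these, 1 was higher and 6 lower, with log2 fold changes between -0.17 and 0.04 and none at an unadjusted p under 0.05. *Mfn2*, a mitochondrial fusion gene, was at 1050 to 1090 CPM with vehicle and at 965 to 1010 CPM with Tributyrin (log2 fold change -0.11, SE 0.065). Its groups were apart, with Tributyrin lower, as in 4.61% of all genes. *Plod1*, a collagen lysyl hydroxylase, gave -0.17 (SE 0.095) and *2510039O18Rik* gave -0.04 (SE 0.073). On the log2 scale all were much closer to 0 than *Nppb*.

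**Figure D3:**
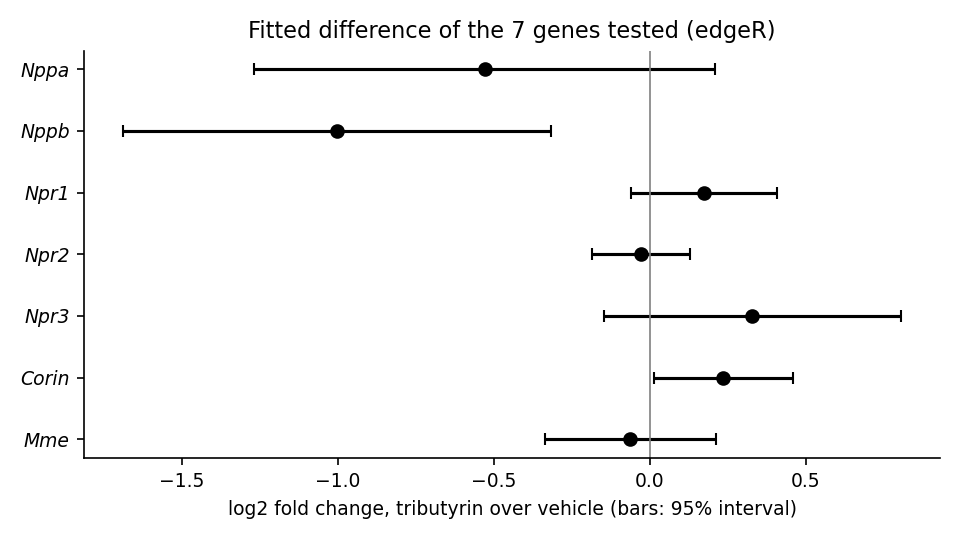
Fitted log2 fold change, Tributyrin over vehicle, of the 7 members tested (points) with 95% intervals (bars) from edgeR's quasi-likelihood fit. The intervals of *Nppb* and *Corin* leave out 0, at -1.69 to -0.32 and 0.01 to 0.46, while no adjusted p was below 0.999.

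*Npr1*, the ANP and BNP receptor that makes cGMP, was at 14.9, 13.6 and 15.2 CPM in vehicle replicates 1 to 3 and at 18.1, 16.2 and 14.8 CPM in Tributyrin replicates 1 to 3. Tributyrin replicate 3 lay within the vehicle range and the other two above it. The means were 14.6 ± 0.833 and 16.4 ± 1.65 CPM (SD, n = 3), and the log2 fold change was 0.17 (SE 0.106, 95% interval -0.06 to 0.41, unadjusted p = 0.133, adjusted p = 0.999 by edgeR). Without Tributyrin replicate 1 it was 0.10.

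*Npr2*, the CNP receptor, was the steadiest member. It was at 55.4, 56.6 and 60.8 CPM with vehicle and at 56.9, 57.8 and 54.7 CPM with Tributyrin, and its highest library was 1.11 times its lowest. Its spread within groups was 0.058 on the log2 scale, at percentile 7.2 of the genes tested, whereas *Nppb* was at percentile 97.0 and *Nppa* at 96.7. The log2 fold change of *Npr2* was -0.03 (SE 0.071) with a 95% interval from -0.18 to 0.13 (unadjusted p = 0.705, adjusted p = 0.999 by edgeR). Its antisense neighbour *Gm12473* had at most 123 counts against at least 1257 of *Npr2*.

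*Npr3*, the clearance receptor, spread widely among the Tributyrin mice alone. Vehicle replicates 1 to 3 were at 18.5, 17.5 and 17.4 CPM, while Tributyrin replicates 1 to 3 were at 13.9, 23.6 and 29.8 CPM. One treated library was thus below every vehicle library and the other two above. The means were 17.8 ± 0.610 and 22.4 ± 8.03 CPM (SD, n = 3), with a log2 fold change of 0.33 (SE 0.215, 95% interval -0.15 to 0.80, unadjusted p = 0.156, adjusted p = 0.999 by edgeR). It was 0.59 without Tributyrin replicate 1 (adjusted p = 0.526) and 0.08 without Tributyrin replicate 3.

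*Npr3* is known as a marker of endocardial cells, and some but not all endocardial markers were high in the same libraries. *Vwf* was at 55.7, 45.9 and 49.0 CPM with vehicle and at 44.2, 81.6 and 68.0 CPM in Tributyrin replicates 1 to 3. *Cytl1* was at 13.8, 9.63 and 9.23 CPM with vehicle and at 7.15, 11.4 and 16.1 CPM with Tributyrin. Tributyrin replicate 1 was lowest for *Npr3* and both of these genes. Of the 6 endocardial markers 4 were higher and 2 lower with Tributyrin. They summed to 91.8 to 108 CPM with vehicle and 84.4 to 132 CPM with Tributyrin, and their part in the *Npr3* values was not tested. By the root mean square difference of mean-centred log2 CPM, *Vwf* and *Cytl1* were at places 55 and 61 of 14132 from *Npr3*, but the endocardial markers *Nfatc1* and *Cdh11* were at 8092 and 9058. These genes were chosen after their values were seen.

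Taken within a library, the ratio of *Npr2* to *Npr1* varied little inside each group, while that of *Npr3* to *Npr1* spread widely with Tributyrin alone. *Npr2* exceeded *Npr1* per kb by 3.82, 4.26 and 4.11 times in vehicle replicates 1 to 3 and by 3.23, 3.66 and 3.79 times in Tributyrin replicates 1 to 3. All Tributyrin ratios were below all vehicle ratios, with a log2 difference of -0.19 (SE 0.085) and the smallest p that the two-sided exact permutation test allows, 0.1 (adjusted p = 0.5). *Npr3* was at 0.634, 0.654 and 0.584 of *Npr1* with vehicle and at 0.390, 0.743 and 1.02 with Tributyrin, a log2 difference of 0.10 (SE 0.413, p = 0.8 in the exact permutation test, adjusted p = 0.8).

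*Corin*, the protease that activates ANP, was higher on average with Tributyrin. It was at 176.4, 170.7 and 204.3 CPM in vehicle replicates 1 to 3 and at 191.7, 243.0 and 214.4 CPM in Tributyrin replicates 1 to 3. Vehicle replicate 3 lay above Tributyrin replicate 1, so the groups overlapped. The means were 183.8 ± 17.97 and 216.3 ± 25.7 CPM (SD, n = 3), and the log2 fold change was 0.24 (SE 0.101, 95% interval 0.01 to 0.46, unadjusted p = 0.0405, adjusted p = 0.999 by edgeR). It was 0.14 without Tributyrin replicate 2 and 0.08 against vehicle replicate 3 alone, the highest vehicle library.

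The ratio of *Corin* to *Nppa* per kb was 1.34, 1.49 and 0.821 with vehicle and 2.73, 2.45 and 1.24 with Tributyrin. Tributyrin replicate 3 lay within the vehicle range. The log2 difference was 0.78 (SE 0.444, p = 0.3 in the two-sided exact permutation test, adjusted p = 0.5). *Nppa* over the summed atrial markers gave 0.136, 0.137 and 1.30 with vehicle and 0.310, 0.262 and 0.707 with Tributyrin, a log2 difference of 0.42 (SE 1.17, exact permutation p = 0.6, adjusted p = 0.75). The 3 vehicle libraries thus spanned a wider range of this ratio than the treated ones.

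*Mme*, which encodes neprilysin, showed no difference beyond the spread. It was at 21.1, 15.6 and 16.7 CPM with vehicle and at 18.4, 16.5 and 16.2 CPM with Tributyrin. All Tributyrin libraries lay within the vehicle range. The log2 fold change was -0.06 (SE 0.124, 95% interval -0.34 to 0.21, unadjusted p = 0.625, adjusted p = 0.999 by edgeR), and it was 0.08 without vehicle replicate 1, the highest library.

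**Figure D4:**
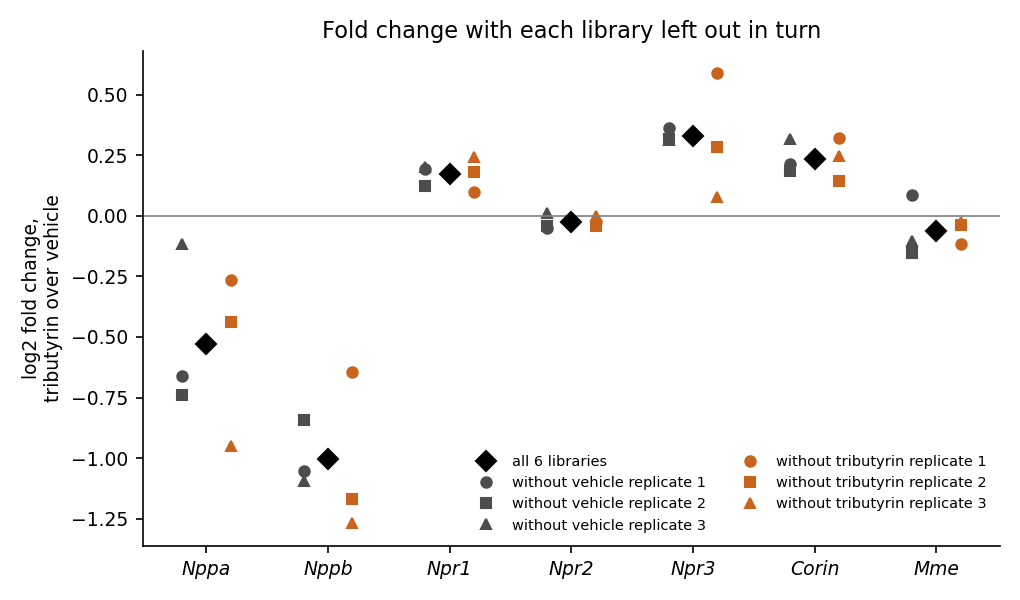
Log2 fold change, Tributyrin over vehicle, of the 7 members tested with all 6 libraries (black diamonds) and with each library left out in turn (grey without a vehicle library, orange without a Tributyrin library, shape by replicate). *Nppb* stayed between -1.27 and -0.64 and *Nppa* between -0.95 and -0.12, and *Npr2* and *Mme* crossed 0.

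Of 12 other genes for the processing and breakdown of these peptides, 10 were tested, and none had an unadjusted p under 0.05. There were 2 higher and 8 lower, with a median log2 fold change of -0.08 and a range from -0.29 to 0.08. *Ctsd*, a lysosomal protease, averaged 511 ± 42.5 and 540 ± 44.9 CPM, and *Ece1*, an endothelin-converting enzyme, 92.6 ± 0.986 and 96.8 ± 10.1 CPM (vehicle and Tributyrin, SD, n = 3). *Fap*, a fibroblast protease, was at 3.08 to 3.64 CPM with vehicle and 2.44 to 2.96 CPM with Tributyrin (log2 fold change -0.29, SE 0.174, unadjusted p = 0.123, adjusted p = 0.999 by edgeR). Its groups were apart, with Tributyrin lower, as in 4.61% of all genes. *Pcsk6*, the convertase that activates corin, gave -0.18 (SE 0.104).

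Downstream of the receptors, 9 of 13 cGMP effector genes were tested, of which 5 were higher and 4 lower (median log2 fold change 0.02). At an unadjusted p under 0.05, 2 were higher and 1 was lower, against 1.97% higher and 2.28% lower over all genes. *Pln*, the phospholamban gene, whose product restrains the calcium pump and is a target of cGMP-dependent kinase, was at 1380, 1320 and 1290 CPM with vehicle and at 1650, 1420 and 1650 CPM with Tributyrin, with the groups apart, as in 4.34% of all genes (0.24, SE 0.079, unadjusted p = 0.0124, adjusted p = 0.999 by edgeR). *Prkg1*, the cGMP-dependent kinase itself, was at 9.21, 12.7 and 11.8 CPM with vehicle and at 9.25, 8.09 and 8.70 CPM with Tributyrin, overlapping only by vehicle replicate 1 (-0.38, SE 0.136, unadjusted p = 0.0194, adjusted p = 0.999). The third was *Rgs2*, a brake on G protein signalling, named after its values were seen, at 0.31 (SE 0.136). *Vasp*, a classic kinase substrate, gave -0.12 (SE 0.087).

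The list for the breakdown or export of cGMP held 12 genes, taken as phosphodiesterases by name or as exporters. All 12 were tested, and none had an unadjusted p under 0.05. There were 8 higher and 4 lower, with a median log2 fold change of 0.02 and a range from -0.22 to 0.24. *Pde3a* averaged 136 ± 5.33 and 145 ± 11.5 CPM, and *Pde6d*, listed by its name alone, 28.1 ± 0.435 and 28.7 ± 4.22 CPM (vehicle and Tributyrin, SD, n = 3). *Abcc4*, a cyclic nucleotide exporter, gave -0.22 (SE 0.102) and *Pde1c*, a calmodulin-dependent phosphodiesterase, 0.18 (SE 0.088).

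The fetal and stress genes that are often measured beside *Nppa* and *Nppb* were mostly lower on average with Tributyrin. Of 11 tested, 1 was higher and 10 lower, where 7121 of all 14133 genes tested were lower. At an unadjusted p under 0.05 by edgeR, 3 were lower, where 2.28% of all genes were. The median log2 fold change was -0.13. The list was chosen with earlier results of these data known, so these counts are descriptions. *Fhl1* (-0.021, SE 0.080), *Ccn2* (-0.065, SE 0.148), *Rcan1* (-0.067, SE 0.099), *Xirp2* (-0.096, SE 0.114) and *Timp1* (-0.127, SE 0.323) were lower by less than their SE. These 5 were named after their values were seen. *Ankrd1*, a cardiac ankyrin repeat gene, was at 721, 1080 and 920 CPM with vehicle and at 440, 631 and 662 CPM with Tributyrin. Its groups were apart, with Tributyrin lower, as in *Nppb* and in 4.61% of all genes. The log2 fold change of *Ankrd1* was -0.65 (SE 0.167, unadjusted p = 0.00281, adjusted p = 0.999 by edgeR). *Gdf15*, a stress cytokine, gave -0.96 (SE 0.379), and *Actc1*, the cardiac actin, gave -0.21 (SE 0.093). The *Gdf15* value rested on few counts, 11 to 53 per library. *Acta1*, skeletal actin, was at 372, 1170 and 358 CPM with vehicle and at 94.2, 255 and 475 CPM with Tributyrin, with overlapping groups (-1.20, SE 0.550, unadjusted p = 0.0525, adjusted p = 0.999). The gene that was higher was *Nr4a3*, a nuclear receptor, at 4.19, 4.33 and 5.54 CPM with vehicle and at 12.9, 3.14 and 8.40 CPM with Tributyrin (0.81, SE 0.387, unadjusted p = 0.0634 by edgeR). None passed the correction.

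*Nppb* and *Nppa* differed in which libraries were high. *Nppb*, *Ankrd1* and *Acta1* were each highest in vehicle replicate 2 and lowest in Tributyrin replicate 1. *Nppa* was highest in vehicle replicate 3, as was *Myh7*, the slow myosin gene, at 204 CPM against 87.4 to 152 CPM in the other libraries. Ranked by the root mean square (RMS) difference of mean-centred log2 CPM over the 6 libraries, *Ankrd1* was at place 53, *Gdf15* at 99 and *Acta1* at 136 of the 14132 genes compared with *Nppb*, while other stress genes were far off, *Xirp2* at 2025, *Fhl1* at 4838 and *Nr4a3* at 14082. The atrial marker *Dkk3* was at place 84 and *Nppa* at 616. These are descriptions over 6 libraries in which every gene shares the same mice and the same group split, and the genes were chosen after their values were seen.

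**Figure D5:**
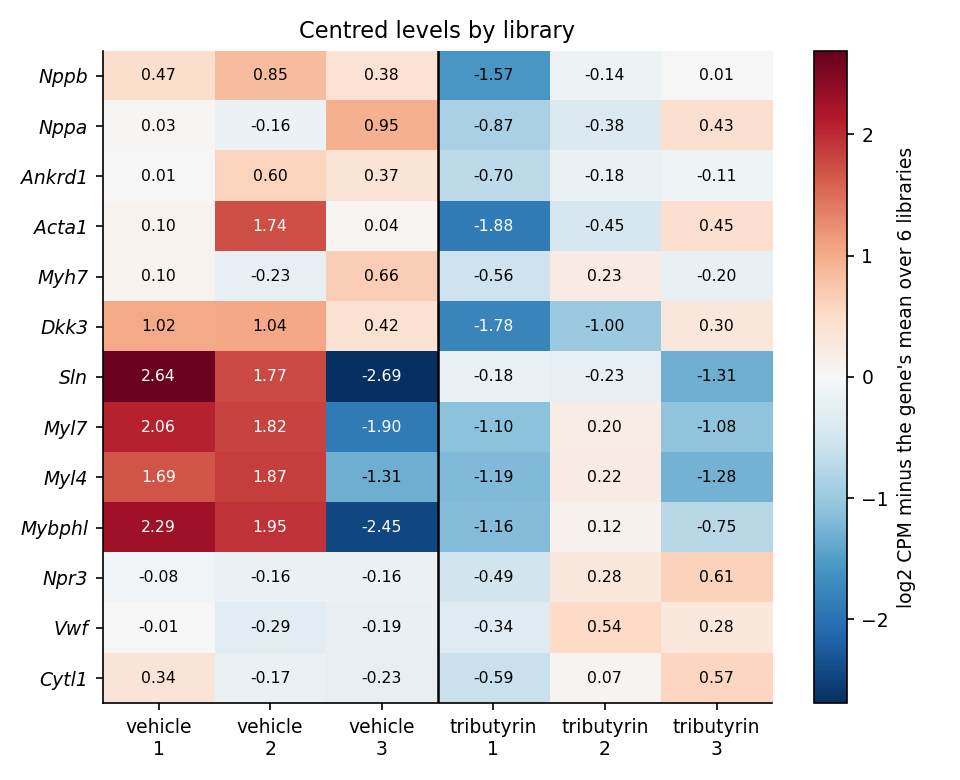
Log2 CPM minus the gene's mean over the 6 libraries for *Nppb*, *Nppa*, *Npr3* and 10 genes of the stress, atrial and endocardial lists chosen after their values were seen, red above and blue below the mean, with libraries in columns and the groups split by a line. *Nppb* was at -1.57 in Tributyrin replicate 1 and *Nppa* at 0.95 in vehicle replicate 3, where *Sln* was at -2.69.

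By the same measure the closest genes to each member were as follows. For *Nppb* they were *Slc16a4*, *Ccdc68* and *Ache*, at RMS differences of 0.17, 0.25 and 0.27, against a spread of *Nppb* about its own mean of 0.77. *Slc16a4*, a monocarboxylate transporter gene, was at 0.142 to 0.795 CPM and *Ccdc68* at 0.249 to 1.09 CPM, so both rested on few counts. For *Nppa* they were *Adam33* and the unnamed models *Gm38372* and *Gm44769* (0.19, 0.23 and 0.24, against 0.58). These also rested on few counts, at 0.605 to 1.8, 0.142 to 0.662 and 0.418 to 1.37 CPM. For *Npr3* they were *Gm44103*, *Ptgs1* and *Col20a1* (0.07, 0.12 and 0.12, against 0.35). *Gm44103* was at 1.03 to 2.48 CPM and *Col20a1* at 0.747 to 1.7 CPM. *Ptgs1*, a prostaglandin synthase gene, was at 5.73 to 6.48 CPM with vehicle and at 4.20, 7.32 and 9.10 CPM in Tributyrin replicates 1 to 3.

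An RMS difference shrinks with the spread of the member itself. For *Npr1* the closest were *Ccdc149*, *Slc25a37* and *Zbtb7b* (0.03 to 0.04, against 0.13), and for *Npr2* they were *Dyrk1b*, *Taf5l* and *Wiz* (0.01 to 0.02, against 0.05). For *Corin* they were *Gpr182*, *Whamm* and *Zfp874a* (0.03 to 0.05, against 0.17), and for *Mme* they were *Erbb2*, *Orc4* and *Prrg1* (0.04 to 0.05, against 0.15).

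Leaving out the filter on low counts changed the calls. Over the 25581 genes with at least 1 count edgeR called 167 at 10%, among them *Nppb* (log2 fold change -1.0, adjusted p = 6.18e-23) and *Nppa* (-0.53, adjusted p = 0.00071), and 0.403% of the genes tested were called lower. The fold changes were nearly those with the filter, while the standard error of *Nppb* was 0.094 against 0.309. In that fit the prior degrees of freedom, which set how far each gene's spread is pulled to the common one, were infinite, against 6.31 with the filter. DESeq2, run on the same 25581 genes, gave *Nppb* an unadjusted p of 0.0379 and called no member.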

How the data were processed

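Stranded mRNA libraries of heart ventricle were sequenced from 3 Tributyrin and 3 vehicle mice, grouped by their titles. The authors trimmed reads (cutadapt 1.13), aligned them to mm10 with STAR and counted them with htseq-count (HTSeq 0.6.1p1), and per the labels these names come from the submitters' processing notes. They deposited whole-number counts per Ensembl gene without normalization. Neither the annotation release nor the strand setting is given in the sources used. Names, positions and lengths came from GENCODE M21 (GRCm38), which matched 54165 identifiers.

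Counts were tested with edgeR 4.0.16 (R 4.3.3) by the quasi-likelihood test, with TMM scaling, filterByExpr (minimum count 10, minimum total 15), no covariate and Benjamini-Hochberg adjustment over the 14133 genes passing, at an FDR of 10%. A positive log2 fold change means a higher level with Tributyrin, and intervals are 95%. CPM are counts per 1000000 of the TMM-scaled totals. Ratios within a library used two-sided exact permutation tests (scipy). Nothing in the labels says whether mice shared a litter or cage. Depth per library was 20369746 to 32734485 counts, and intervals from counts cover counting error and the spread between these 3 mice per group. No pair of libraries agreed within sampling noise (chi-square per degree of freedom 6.67 to 28.2).

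The genes named are the members, of each list the genes past 10%, the 2 with the highest level and the 2 with the lowest unadjusted p, and the 3 genes closest to each member. Members and lists were chosen with earlier results of these data known. Alternatives were scaling by library size alone or by DESeq2-type size factors, no filter, a mean CPM of at least 5, DESeq2 1.42.0, limma-voom (limma 3.58.1), the replicate number as a block, an atrial score covariate (mean log2 CPM of 10 atrial markers) and leaving out each mouse. The scripts were tested on simulated data. Some sequences are not reported here.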

Additional observations from a re-analysis of the deposited data

How the results depend on the processing

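At an FDR of 10% the number of genes called was 0 with all 6 mice, and also with DESeq2-type size factors, library size alone, a mean CPM of at least 5, limma-voom, the atrial score covariate and without vehicle replicates 1 and 2. It was 167 without the filter on low counts, 11 with DESeq2, and 0 to 3 when single mice were left out. The number of members called was 2 without the filter, where the prior degrees of freedom were infinite, and 0 in every other fit. Over the 15 alternatives *Nppa*, *Nppb*, *Npr1*, *Npr3* and *Corin* kept their direction. *Mme* reversed to 0.0255 without vehicle replicates 1 and 2, a fit with a vehicle arm of 1 library that is assumed to vary like the others. Leaving out single mice gave -0.0497 to 0.0132 for *Npr2*, positive without vehicle replicate 3, and -0.1534 to 0.0838 for *Mme*, positive without vehicle replicate 1. Over the same omissions the log2 difference of *Npr3* over *Npr1* ranged from -0.21 to 0.49 and that of *Nppa* over the atrial markers from -0.13 to 1.499, so neither kept its direction, and the cause was not tested. The other 3 ratios kept theirs.

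With the replicate number as a block 2 genes passed 10%, and 0 members. In that fit *Nppa* gave -0.54 (SE 0.124, unadjusted p = 0.00135, adjusted p = 0.359 by edgeR). Without the block its SE was 0.333 and its unadjusted p 0.142 by edgeR. *Nppb* gave -1.11 with the block (SE 0.231, unadjusted p = 0.000671, adjusted p = 0.348 by edgeR). The unadjusted p of *Nppa* thus depended on the block. The deviations of same-numbered libraries correlated at 0.214, 0.037 and 0.015, too weakly for the numbers to be taken to pair the mice, and 4 of 6 libraries correlated best with their own number.

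With 3 mice per group the permutation tests cannot pass 0.05, and the intervals of the members include differences that the tests did not call. *Nppc* had too few counts for any comparison. Levels compared between genes depend on the exon length used.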
